A study of Mus musculus with 2 samples.

Results

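The 9 genes followed here belong to regulated cell death and were measured in single cells sorted as cones. They are *Parp1* and *Aifm1* of parthanatos, *Casp9*, *Bax*, *Bcl2* and *Bcl2l1* of the mitochondrial route of apoptosis, *Cflar* and *Cyld* of the death receptor branch, and the death-associated kinase *Dapk2*. The genes were chosen by name, with earlier results of these data known, and all had a row among the 17774 genes of the deposited count table. The cells came from C57BL/6 mice that carry the *Pde6ccpfl1* mutation, a model of cone dystrophy, together with eGFP under the *Chrnb4* promoter, and GFP-positive cells were sorted 1 per well at PN24 (postnatal day 24). The uninjected retinae had no injection, and the GSK-J4-treated retinae had a single intravitreal injection of GSK-J4, an inhibitor of the H3K27 demethylases, at PN14 to a final 10 µM. No sham-injected or wildtype cells were analysed here, so the injection and the compound cannot be told apart, and both libraries carry the mutation and the transgene. Each condition is 1 library on 1 plate, the number of animals behind it is not given in the sources used here, and the cell names of the GSK-J4 library hold the word adult where its label gives P24. Cells of 1 library are not replicates, so no test was run, and each value below describes these 2 libraries.

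Apoptosis and parthanatos are separate programmes by which a cell takes itself apart. In the mitochondrial route of apoptosis, BAX opens the outer mitochondrial membrane, BCL2 and BCL-XL (the product of *Bcl2l1*) hold it in check, and released cytochrome c lets caspase-9 start the caspase cascade. In the death receptor branch, c-FLIP (*Cflar*) blocks caspase-8, while the deubiquitinase CYLD strips ubiquitin chains from the receptor complexes and DAPK2 is a calmodulin-regulated kinase linked to death and autophagy. In parthanatos, PARP1 answers DNA breaks with poly(ADP-ribose), which frees AIF (*Aifm1*) from mitochondria to act on nuclear DNA without caspases. Cones with *Pde6c* mutations lack a working cone phosphodiesterase, and cyclic GMP builds up before they die.

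GSK-J4 acts on a repressive histone mark placed around promoters, and the study lists *Cyld* and *Dapk2* among genes with H3K27me3 at the promoter. RefSeq promoters (GRCm38.p6, 250 bases before to 50 after the start) were found for all 9 genes. Those of *Dapk2* and *Cyld*, which had the highest log-folds of the 9 in GSK-J4-treated cells, and of *Cflar*, which had the lowest, are shown 5′ to 3′ with each CpG in capitals.
Dapk2, chr9:66157976-66158275, plus strand: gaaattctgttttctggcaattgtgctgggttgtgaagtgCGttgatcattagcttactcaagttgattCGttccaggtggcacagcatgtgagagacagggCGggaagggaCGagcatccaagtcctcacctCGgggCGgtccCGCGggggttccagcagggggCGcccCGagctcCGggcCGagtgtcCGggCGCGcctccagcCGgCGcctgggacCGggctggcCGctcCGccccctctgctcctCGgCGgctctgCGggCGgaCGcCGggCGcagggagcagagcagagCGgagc
Cyld, chr8:88696778-88697077, plus strand: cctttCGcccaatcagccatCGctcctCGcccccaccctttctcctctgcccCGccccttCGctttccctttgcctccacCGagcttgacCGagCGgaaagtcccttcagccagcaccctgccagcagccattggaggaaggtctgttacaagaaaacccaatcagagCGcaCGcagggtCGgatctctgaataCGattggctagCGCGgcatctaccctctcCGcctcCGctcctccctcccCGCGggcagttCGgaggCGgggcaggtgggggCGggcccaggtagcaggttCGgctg
Cflar, chr1:58711241-58711540, plus strand: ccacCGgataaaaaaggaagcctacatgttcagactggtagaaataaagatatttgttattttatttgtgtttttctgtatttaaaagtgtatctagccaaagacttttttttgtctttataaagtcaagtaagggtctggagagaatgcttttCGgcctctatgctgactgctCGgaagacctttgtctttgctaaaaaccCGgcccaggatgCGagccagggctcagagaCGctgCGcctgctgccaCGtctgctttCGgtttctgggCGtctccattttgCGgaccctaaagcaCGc
The *Dapk2* window held 28 CpGs, and 14.2% of the 32851 promoters of this length held as many or more. The *Cyld* window held 22, which 23.1% of promoters reached, and the *Cflar* window held 12, which 39.6% reached, beside a median of 7. Over all 9 genes the count ran from 1, in 1 of the 3 *Bcl2l1* entries, to 44 in *Bcl2*. The letters describe the window only, and no histone mark was measured in these files.

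After the filter, 82 uninjected cells held a total of 1113424 counts, with a median of 8118 per cell (860 to 98250), and 64 GSK-J4-treated cells held 208578, with a median of 2336 (420 to 15371). The GSK-J4 library goes against its cell type label. Of 11 cone markers, 5 or more were detected in every uninjected cell, whereas 50 of the 64 treated cells had none and 0 had 3 or more, and *Opn1sw*, *Gngt2*, *Cngb3*, *Pde6c* and *Guca1a* were at 0 in it. The markers summed to 2.59% of uninjected counts (0.358% to 9.81% per cell) and 0.213% of treated counts (0% to 6.74%). Their part in the results below was not tested, and a lower level per cell and fewer cells of a type cannot be told apart in a sum. No cell name was shared by the libraries, although 57 well positions were used on both plates.

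The deposited counts also took uneven values. In uninjected cells no cell held exactly 2 counts of *Parp1*, *Cyld*, *Bcl2* or *Casp9*, although 58, 25, 3 and 3 cells held 3 or more, and 9, 24, 9 and 3 cells held 1. In the same plate 11 cells held exactly 2 counts of *Bcl2l1* and 10 held 2 of *Cflar*, and in GSK-J4-treated cells 11 held 2 of *Parp1* and 16 held 2 of *Cyld*. Across all genes that had 1 or more cells at 1 and 10 or more cells at 3 or above, 333 of 1495 (22.3%) had no uninjected cell at 2, and 39 of 120 (32.5%) had no treated cell at 2. Where a count of 2 is missing for a whole gene, the deposited number may not be the number of molecules counted, so for the 9 genes the number of cells with a count is given beside the sum over each library. All intervals are 95% intervals. Those of sums (exact Poisson), ratios (exact conditional), means and log-folds are for counting error only and take each deposited count as 1 counted molecule. Those of shares (exact Clopper-Pearson) take the cells of 1 library as independent draws. None measures a spread between animals or libraries, so overlap or its lack describes these 2 libraries only.

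**Figure D1:**
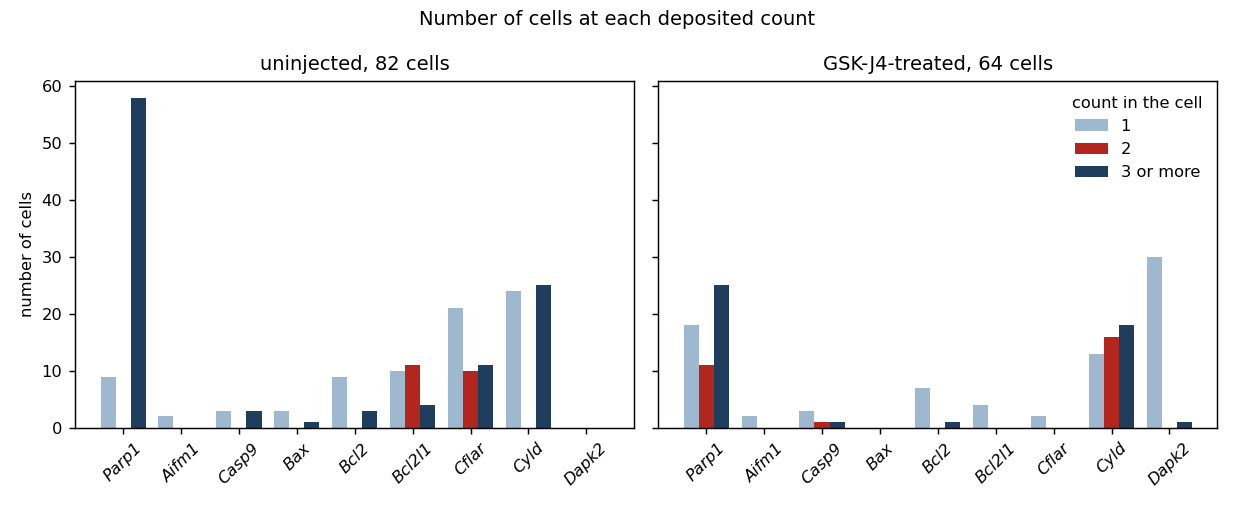
Number of cells (vertical axis) with a deposited count of 1, 2 or 3 or more of each gene, in 82 uninjected cells (left) and 64 GSK-J4-treated cells (right). The bar for 2 is missing for *Parp1*, *Cyld*, *Bcl2* and *Casp9* in uninjected cells, while *Bcl2l1* and *Cflar* have 11 and 10 cells there, and the 30 treated cells of *Dapk2* beside its highest cell all stand at 1.

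*Parp1*, the sensor of DNA breaks (GRCm38 chromosome 1, 180568924 to 180601254), had counts in nearly equal shares of both libraries. It had a count in 67 of 82 uninjected cells (81.7%, 71.6% to 89.4%) and in 54 of 64 GSK-J4-treated cells (84.4%, 73.1% to 92.2%). The uninjected cells with a count ranged from 1 to 131 with a median of 6, and the treated cells from 1 to 106 with a median of 2, so the values of the groups overlapped. The sums were 901 (843 to 962) and 261 (230 to 295) counts, and 106 of the 261 lay in 1 treated cell that held 1307 counts in all.

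The study names *Parp1* among its most upregulated genes in these same cells, so a higher level here is no separate evidence. Scaled to 10000 counts per cell, the mean of *Parp1* was 13 (11.8 to 14.4) in uninjected and 21.2 (18.1 to 24.9) in treated cells. The average log-fold compares the natural logs of these means after adding 1, treated minus uninjected, and was 0.46 (0.28 to 0.64), beyond the limit of 0.3 that the methods use. Without the cell of highest scaled value in each group it was 0.08, with a ratio of summed rates of 1.08 (0.902 to 1.28). On the wells of columns 7 to 12 it was 1.15 (0.93 to 1.36) and on those of columns 1 to 6 it was -0.55 (-0.91 to -0.16), and without the highest cells these were 0.27 and 0.32. On columns 1 to 6 the log-fold was 0.45 without the highest uninjected cell alone (131 counts) and -0.68 without the highest treated cell alone. The negative sign there thus rested on 1 uninjected cell. On columns 7 to 12 it was -0.18 without the highest treated cell alone (106 counts) and 1.60 without the highest uninjected cell alone. The positive sign there thus changed with 1 treated cell. Over all wells it was -0.37 without the highest treated cell alone and 0.91 without the highest uninjected cell alone. The sign there thus changed with which single cells were kept, and stayed positive, at 0.08, without the highest cell of both groups.

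Thinned to 867 counts per cell, *Parp1* kept a count in 27 of 81 uninjected cells (33.3%, 23.2% to 44.7%) and 29 of 50 treated cells (58.0%, 43.2% to 71.8%), with 1 and 14 shallower cells left out. In the 14 treated cells with a count of any cone marker, *Parp1* had a count in each and summed to 49 (7.08 per 10000, 5.24 to 9.36). The 50 treated cells without one had 212 (15.2 per 10000, 13.2 to 17.4), the 106 of the highest cell among them.

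*Aifm1*, which encodes the AIF protein released in parthanatos, was close to undetected. It had 2 counts (0.242 to 7.22) in uninjected cells and 2 (0.242 to 7.22) in treated cells, each 1 count in a cell of its own. Its log-fold of 0.04 (-0.38 to 0.87) leaves room for a difference in either direction, so none was detectable at this depth. The 4 cells with an *Aifm1* count all had *Parp1* too, as did most cells in each library.

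Of the mitochondrial genes that promote death, *Casp9*, the initiator caspase, had 13 (6.92 to 22.2) counts in 6 uninjected cells and 8 (3.45 to 15.8) in 5 treated cells. Its highest cells held 4 and 3 counts, and its log-fold was 0.11 (-0.28 to 0.85). Its ratio of summed rates was 3.29 (1.18 to 8.55), or 2.75 (0.736 to 8.82) without the highest cells, under scaling by the total count. Median-ratio size factors moved the ratio of each gene by -0.83 on the log2 scale. With them the log-fold of the summed *Casp9* counts went from 0.21 to 0.11. The gene overlaps *Cela2a* on the other strand, and whether the counting used strand is not given in the sources used here. *Bax*, the pore former, had 17 (9.90 to 27.2) counts in 4 uninjected cells and 0 in treated cells, where 0 of 64 cells allows a share of cells with a count of up to 4.69% by a floor of 3 counts and up to 5.60% by Clopper-Pearson. Of the 17 counts, 14 lay in 1 cell on columns 7 to 12 that held 6407 counts in all, and only 0.529% of the 8703 genes that had 10 or more uninjected counts had as large a share in their highest cell. The interval of its ratio of summed rates, 0 to 1.29, includes no difference, and without its highest cell only 3 uninjected counts remained. Neither *Aifm1*, *Casp9* nor *Bax* reached a count in 10% of the cells of either group, the filter for counting log-folds beyond the limit.

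Among the survival genes of the same route, *Bcl2* had 21 (13 to 32.1) counts in 12 uninjected cells and 10 (4.80 to 18.4) in 8 treated cells, with no cell above 4. The shares of cells, 14.6% (7.80% to 24.2%) and 12.5% (5.55% to 23.2%), overlapped widely, and the log-fold was 0.29 (-0.15 to 0.95). The ratio of summed rates, which does not weigh cells equally, was 2.54 (1.07 to 5.64), and 2.79 (1.10 to 6.62) without the highest cells. Under scaling by the total count, the measures of *Bcl2* thus differed in whether their interval held no difference. With median-ratio size factors the log-fold of its summed counts went from 0.22 to 0.08. An antisense gene with a row of its own, *D630008O14Rik*, overlaps *Bcl2*, so reads of the pair cannot be told apart without strand. *Bcl2l1*, the gene of BCL-XL (GRCm38 chromosome 2, 152780668 to 152831728, minus strand), had 110 (90.4 to 133) counts in 25 of 82 uninjected cells and 4 (1.09 to 10.2) in 4 of 64 treated cells. Its ratio of summed rates was 5.15-fold lower in treated cells (1.96 to 19.2), but 67 of the 110 counts came from 1 uninjected cell with 75174 counts in all, and without the highest cells the ratio was 2.87 (0.919 to 14.5). The log-fold, which weighs cells equally, was -0.03 (-0.48 to 0.68), since a count in a shallow treated cell weighs more than in a deep uninjected one. After thinning, 7 of 81 uninjected and 1 of 50 treated cells kept a *Bcl2l1* count, shares of 8.64% (3.55% to 17%) and 2% (0.0506% to 10.6%) whose intervals overlap.

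**Figure D2:**
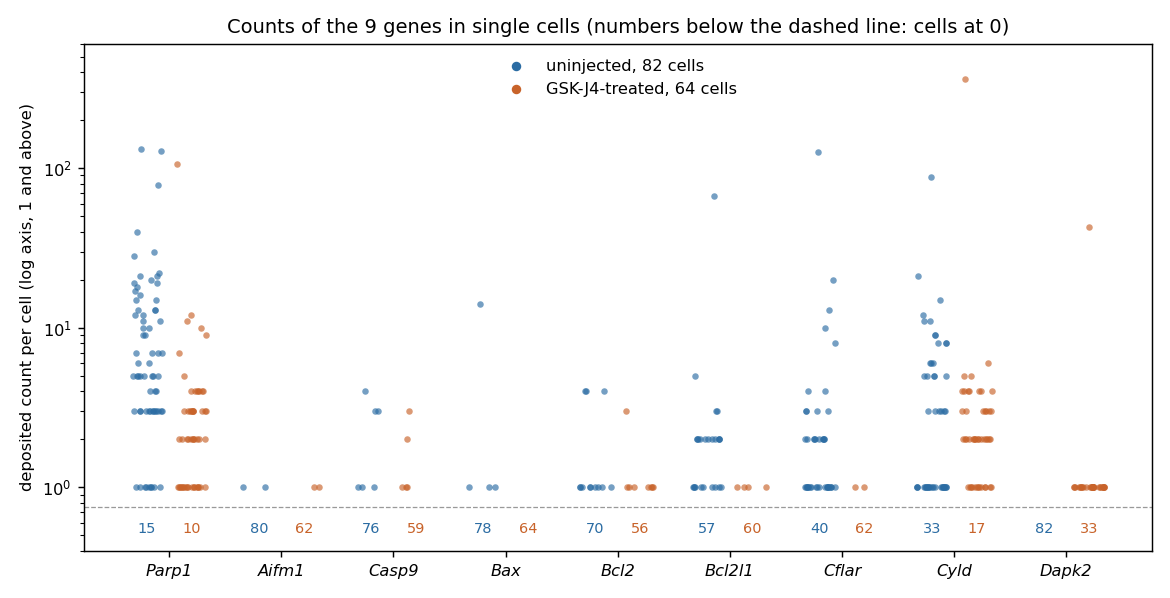
Deposited count of each of the 9 genes in every kept cell (log axis), for 82 uninjected (blue) and 64 GSK-J4-treated (orange) cells, with the number of cells at 0 below the dashed line. Lone high cells stand above the rest for *Cyld* (363 counts), *Dapk2* (43) and *Parp1* (106) in treated cells and for *Cflar* (127), *Bcl2l1* (67) and *Bax* (14) in uninjected cells.

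In the death receptor branch, *Cflar*, the inhibitor of caspase-8 (GRCm38 chromosome 1, 58711508 to 58758884), was the 1 gene of the 9 that was lower in treated cells beyond the limit given above. It had a count in 42 of 82 uninjected cells (51.2%, 39.9% to 62.4%), from 1 to 127, and in 2 of 64 treated cells (3.12%, 0.381% to 10.8%), at 1 count each. The sums were 239 (210 to 271) and 2 (0.242 to 7.22), a rate 22.4-fold lower (6.13 to 186) in treated cells. A cell on columns 7 to 12 held 127 of the 239 counts, yet without the highest cells the rate was still 20.8-fold lower (3.66 to 830), and the log-fold went from -1.39 (-1.59 to -0.57) to -0.85. On columns 7 to 12 the log-fold was -1.86 (-2.09 to -0.62), and on columns 1 to 6 it was -0.36 (-0.88 to 0.87), an interval that spans 0, although the summed rate on columns 1 to 6 was 8.41-fold lower (1.44 to 338). After thinning, 12 of 81 uninjected cells (14.8%, 7.90% to 24.4%) and 1 of 50 treated cells (2%, 0.0506% to 10.6%) kept a count, so at equal depth the intervals of the shares overlapped. The log-fold of the thinned cells was -1.43, with 16 of the 29 uninjected counts in 1 cell. The study lists *Cflar* among the leading genes of a cluster of uninjected cells, so this direction is not independent of how the study used these cells.

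*Cyld*, the deubiquitinase (GRCm38 chromosome 8, 88697028 to 88751945), had a higher share of cells and a higher summed rate in treated cells. It had a count in 49 of 82 uninjected cells (59.8%, 48.3% to 70.4%) and in 47 of 64 treated cells (73.4%, 60.9% to 83.7%), although treated cells were shallower. At 867 counts per cell the shares were 14.8% (7.90% to 24.4%) and 38.0% (24.7% to 52.8%), with 1 and 14 shallower cells left out. These intervals are narrowly apart, in 1 random draw that was not repeated. The sum of 473 treated counts was largely that of 1 cell on columns 7 to 12, which held 363 of them (76.7%) among 2496 counts in all, and the next cell held 6. In the uninjected library the highest cell held 88 of 285 counts, and the next 21.

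Without the highest cells *Cyld* had 197 and 110 counts, and its ratio of summed rates was 2.99 (2.35 to 3.79) in place of 8.86 (7.63 to 10.3). The log-fold was then 1.03 in place of 2.09 (1.88 to 2.27). It was 0.70 without the highest treated cell alone and 2.42 without the highest uninjected cell alone. On columns 1 to 6, where no treated cell held more than 4 counts, the ratio was 3.12 (2.20 to 4.38). These ratios are under scaling by the total count. With median-ratio size factors the log-fold of the summed *Cyld* counts, highest cells included, went from 1.89 to 1.41. In the 14 treated cells with a cone marker count, 12 had a *Cyld* count, 34 in all (4.91 per 10000, 3.40 to 6.87), and the 50 without one had 439 (31.5 per 10000, 28.6 to 34.6), the 363 of the highest cell among them. 2 processed pseudogenes without rows lie inside *Cyld* on the other strand.

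*Dapk2*, the calmodulin-regulated kinase (GRCm38 chromosome 9, 66158223 to 66272242), had no count in the uninjected library, where 0 of 82 cells allows a share of cells with a count of up to 3.66% by the floor of 3 counts and up to 4.40% by Clopper-Pearson. In the treated library 31 of 64 cells (48.4%, 35.8% to 61.3%) had a count, 73 (57.2 to 91.8) in all. One cell with 5180 counts held 43 of them, and each of the other 30 cells held exactly 1. Those 30 cells ran from 637 to 15371 counts in all. Over all 64 treated cells the *Dapk2* count went with the cell's total count, with a Spearman rho of 0.52. If each deposited count is taken as 1 molecule, *Dapk2* was at least 130-fold higher by the floor of 3 counts over the uninjected library. By the lower end of the exact interval of the ratio it was at least 103-fold higher. Without the highest cell these were 54.7-fold and 41.8-fold. The cells with a count were 16 of 33 on columns 1 to 6 and 15 of 31 on columns 7 to 12. Of 15947 genes, 8 had no uninjected count and were detected in as many treated cells or more. Both *Dapk2* and *Cyld* were picked by the study from genes that differed in these cells, so their direction is no separate evidence.

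**Figure D3:**
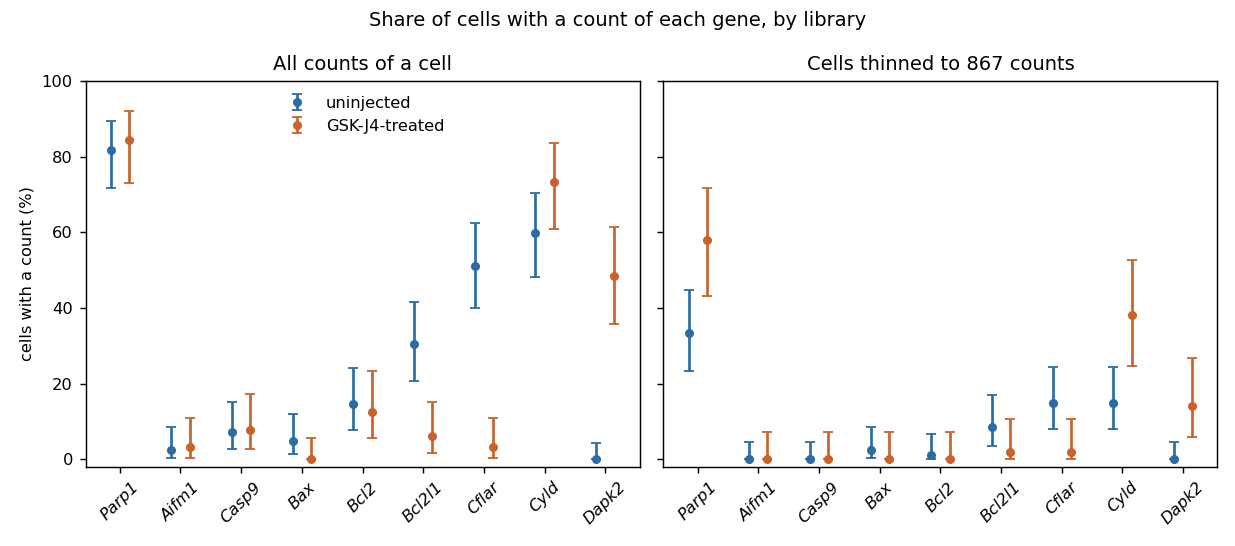
Percent of cells with a count of each gene in uninjected (blue) and GSK-J4-treated (orange) cells, with 95% Clopper-Pearson intervals, for all counts (left) and for cells thinned to 867 counts (right). After thinning, in 1 random draw, the intervals of the libraries are narrowly apart for *Cyld* (14.8% and 38.0%) and apart for *Dapk2* (0% and 14%). They come to overlap for *Cflar* (14.8% and 2%), whose log-fold in thinned cells was -1.43.

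Between the libraries, 6 of the 9 genes passed the filter, and *Parp1*, *Cyld* and *Dapk2* (3 of 6) were higher and *Cflar* (1 of 6) lower beyond 0.3. Among all 7682 genes that passed, 20.4% were higher and 24% lower beyond 0.3. *Dapk2*, *Cflar* and *Bcl2l1* passed through 1 library only, and the count over the 6 is a description. The study had already named *Parp1*, *Cyld*, *Dapk2* and *Cflar* from results in these same cells, so these calls are no separate evidence. On columns 1 to 6 alone, *Bcl2*, *Cyld* and *Dapk2* were higher and *Parp1* and *Cflar* lower among 7 genes that passed, beside 22.3% and 25% of all genes. On columns 7 to 12, *Parp1*, *Cyld* and *Dapk2* were higher and *Cflar* lower among 5, beside 23.6% and 26%. *Cyld* and *Dapk2* were higher, and *Cflar* lower, on both sides. On columns 7 to 12 the log-fold of *Cyld* was 2.42, and 0.18, within the limit, without the highest treated cell alone. It was 2.97 without the highest uninjected cell alone and 0.73 without both. *Parp1* was on opposite sides of 0.

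High lone cells were not particular to these genes. Among genes whose highest cell held at least 20 counts, that cell held at least 5 times the count of the next in 700 of 2844 genes (24.6%) in uninjected cells and 425 of 532 (79.9%) in treated cells. In treated cells *Parp1* (106 against 12), *Cyld* (363 against 6) and *Dapk2* (43 against 1) all met this, and in uninjected cells *Bcl2l1* (67 against 5) and *Cflar* (127 against 20) did, whereas *Parp1* (131 against 128) and *Cyld* (88 against 21) did not.

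**Figure D4:**
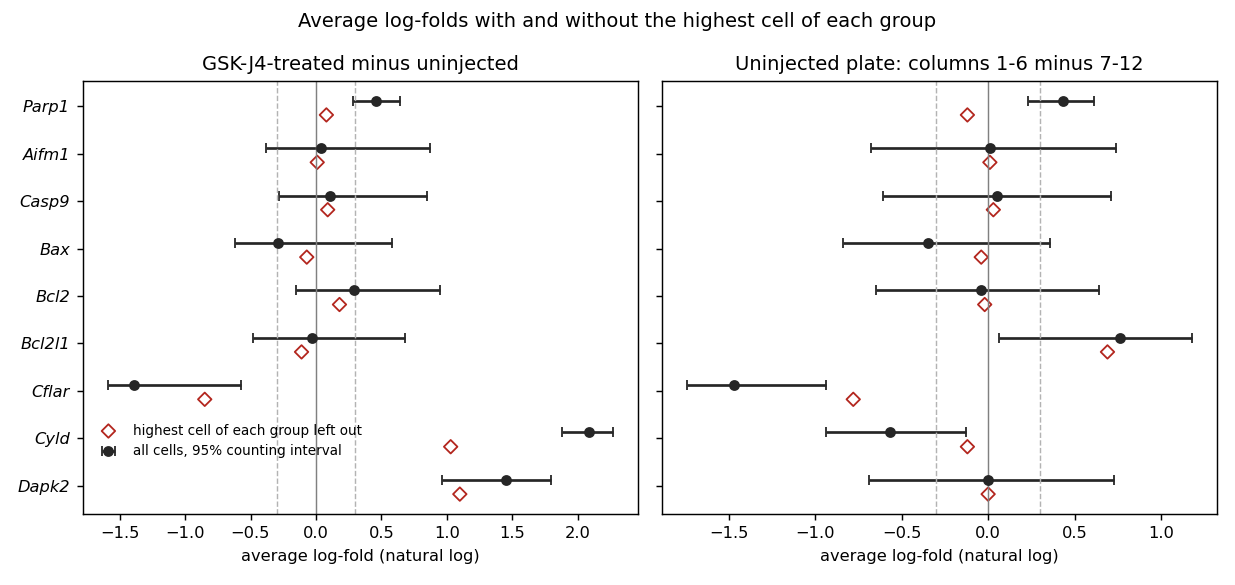
Average log-fold (natural log, horizontal axis) of each gene with its 95% counting interval (black) and without the cell of highest scaled value in each group (red diamonds), for GSK-J4-treated minus uninjected cells (left) and for columns 1 to 6 minus 7 to 12 of the uninjected plate (right), with dashed lines at -0.3 and 0.3. Leaving out the highest cells brings *Parp1* from 0.46 to 0.08 and *Cyld* from 2.09 to 1.03 on the left, and *Parp1* from 0.43 to -0.12 on the right, while *Bcl2l1* stays at 0.69.

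The uninjected plate was also compared between its sides, 39 cells of well columns 1 to 6 with 546722 counts and 43 cells of columns 7 to 12 with 566702. No label says what the sides hold, so this is a split of 1 library by position. *Bcl2l1* lay almost entirely on columns 1 to 6, with 106 (86.8 to 128) counts in 22 of 39 cells (56.4%, 39.6% to 72.2%) against 4 (1.09 to 10.2) in 3 of 43 cells (6.98%, 1.46% to 19.1%). Its rate was 27.5-fold higher (10.4 to 103) on columns 1 to 6, and 15.4-fold (4.89 to 77.9) without the highest cell of each side. Thinned to 867 counts, 5 of 39 cells (12.8%, 4.30% to 27.4%) and 2 of 42 cells (4.76%, 0.582% to 16.2%) kept a *Bcl2l1* count, with 7 and 2 counts. These intervals overlap. The sides were already alike in median depth, at 8819 and 7163 counts per cell, and thinning left 9 of 110 *Bcl2l1* counts. This overlap thus cannot decide whether the shares differ. Of the 1853 genes that had 100 or more uninjected counts, 6.26% had as large a share on 1 side as the 96.4% of *Bcl2l1*. The log-fold was 0.76 (0.06 to 1.18). In GSK-J4-treated cells 2 counts lay on each side.

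*Cflar* lay the other way, with 52 (38.8 to 68.2) counts in 14 of 39 cells (35.9%, 21.2% to 52.8%) on columns 1 to 6 and 187 (161 to 216) in 28 of 43 cells (65.1%, 49.1% to 79.0%) on columns 7 to 12. The rate was 3.47-fold lower (2.54 to 4.81) on columns 1 to 6, and 1.70-fold lower (1.09 to 2.70) without the highest cells, and the log-fold went from -1.47 to -0.78. Cells with *Bcl2l1* but no *Cflar* numbered 13 on columns 1 to 6 and 0 on columns 7 to 12. Cells with *Cflar* but no *Bcl2l1* numbered 5 and 25. Of the 1853 genes that had 100 or more uninjected counts, 25.6% had as large a share on 1 side as the 78.2% of *Cflar*. Thinned to 867 counts, 3 of 39 cells (7.69%, 1.62% to 20.9%) and 9 of 42 cells (21.4%, 10.3% to 36.8%) kept a *Cflar* count. Both genes code for brakes on caspases, at the mitochondrion and at the death receptor. Their summed counts leaned to opposite sides of this plate. For both, the intervals of the shares overlapped after thinning, which left 29 *Cflar* counts in 81 cells. Over all counts those of *Bcl2l1* were apart and those of *Cflar* overlapped.

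**Figure D5:**
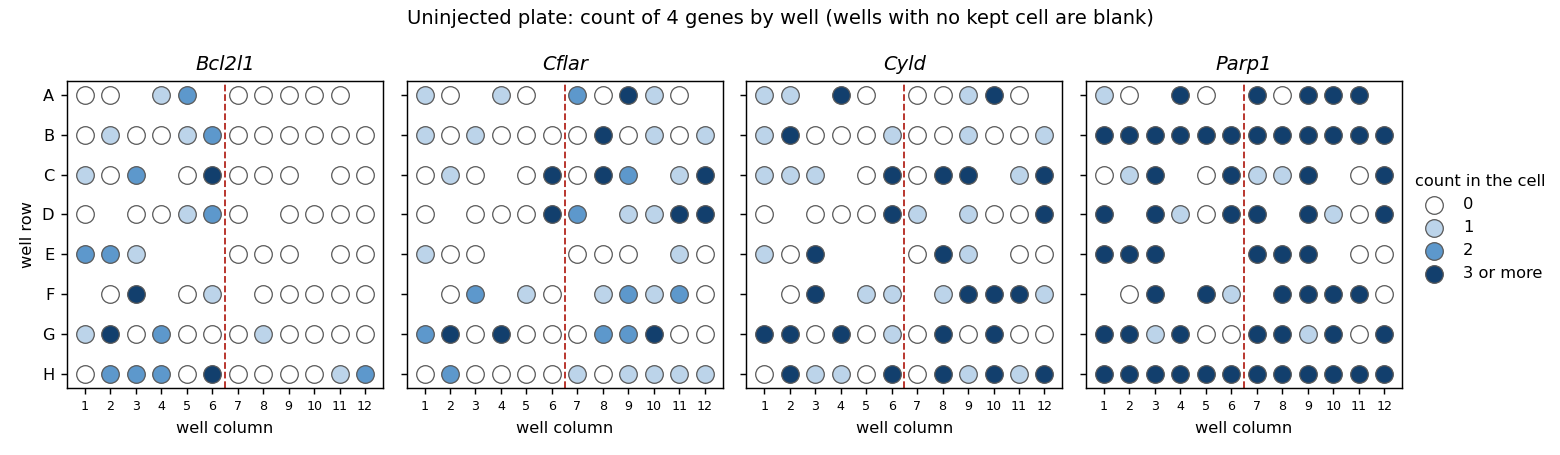
Wells of the uninjected plate by row and column, shaded by the deposited count of *Bcl2l1*, *Cflar*, *Cyld* and *Parp1* (0, 1, 2, 3 or more), with the dashed line between columns 6 and 7. *Bcl2l1* counts fill 22 wells on the left and 3 on the right and *Cflar* counts 14 and 28, while *Cyld* (24 and 25) and *Parp1* (31 and 36) fill both sides.

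Of the other genes, *Cyld* (24 of 39 and 25 of 43 cells) and *Parp1* (31 of 39 and 36 of 43 cells) had counts in like shares of both sides. The log-fold of *Parp1* was 0.43 (0.23 to 0.61) while its summed rate was 0.854 (0.747 to 0.976) of that on columns 7 to 12, so the measures differed in sign, and without the highest cells it was -0.12 (-0.57 without that of columns 1 to 6 alone). That of *Cyld* was -0.57 (-0.94 to -0.13) and -0.12 without them. *Bax* had 1 count on columns 1 to 6 and 16 on columns 7 to 12, *Bcl2* 11 and 10, *Casp9* 8 and 5, *Aifm1* 2 and 0, and *Dapk2* none. Between the sides, 6 of the 9 genes passed the filter, with *Parp1* and *Bcl2l1* (2) higher and *Cflar* and *Cyld* (2) lower on columns 1 to 6, beside 15.9% and 14.6% of all 8823 genes. Without the highest cells, *Bcl2l1* and *Cflar* were still beyond 0.3.

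The number of the 9 genes with a count in a cell had a median of 3 (0 to 6) in uninjected and 2 (0 to 5) in treated cells. It went with the cell's total count, with a Spearman rho of 0.72 over 82 cells and 0.75 over 64 cells that share a library each. Below the median depth of uninjected cells, *Bcl2l1* had a count in 3 of 41 cells, and above it in 22 of 41. For *Cflar* these were 16 and 26 of 41, and for *Cyld* 15 and 34 of 41. In treated cells 30 of the 31 with *Dapk2* also had *Parp1* and 25 had *Cyld*, beside 54 and 47 of all 64.

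Over uninjected cells, the genes whose scaled log levels were most like that of *Parp1*, among 2643 genes detected in 25% of cells or more, were *Lmnb1*, *Sgta* and *Rpn2*, with Pearson r of 0.63, 0.62 and 0.59 across 82 cells. For *Bcl2l1* they were *Usf1*, *Srek1* and *Inpp4a* (0.56, 0.52 and 0.50), for *Cflar* *Mrpl9*, *Kbtbd3* and *Cul9* (0.57, 0.55 and 0.55), and for *Cyld* *Eif1ad*, *Gm36346* and *Iqsec1* (0.53, 0.47 and 0.46). The cells share 1 library and its differences in depth. Without the highest cell of the named gene, the values for *Parp1* were 0.52, 0.51 and 0.48, whereas those for *Cflar* dropped to 0.29, 0.37 and 0.33 and those for *Cyld* to 0.31, 0.25 and 0.32. By side (columns 1 to 6, then 7 to 12), the values for *Parp1* were 0.51 or more on both. For *Bcl2l1* it was 0.50 and -0.07 with *Usf1*, 0.53 and 0.08 with *Srek1*, and 0.40 and 0.75 with *Inpp4a*. For *Cflar* it was -0.12 and 0.69 with *Mrpl9*, 0.12 and 0.61 with *Kbtbd3*, and 0.28 and 0.57 with *Cul9*. For *Cyld* it was 0.04 and 0.72 with *Eif1ad*, -0.16 and 0.78 with *Gm36346*, and 0.29 and 0.57 with *Iqsec1*.

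Beyond the 9, 63 other cell death genes were listed, of which 51 had a row and 24 passed the filter. *Pmaip1*, *Vdac1*, *Ppif* and *Casp6* (4) were higher in treated cells and 6 lower, among them *Bad*, *Cycs*, *Vdac2*, *Birc6* and *Mif*, beside 20.4% and 24% of all genes, and the median log-fold was -0.15 beside 0.00 over all genes that passed. The shares of the 24 genes, 16.7% and 25%, were near those of all genes. *Vdac2*, a channel of the outer mitochondrial membrane that can hold back BAK, had 454 (413 to 498) counts in 47 uninjected cells and 0 in treated cells, at least 28.3-fold lower by the floor and 23-fold by the exact interval, with a log-fold of -1.36 (-1.52 to -0.49). *Mif*, which has been described as the nuclease that acts with AIF in parthanatos, had 408 (369 to 450) in 49 cells and 0, at least 25.5-fold lower by the floor and 20.6-fold by the exact interval, with a log-fold of -1.61 (-1.78 to -0.73).

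*Bad*, which frees BAX by binding BCL-XL, had 122 (101 to 146) counts in 23 cells and 0, at least 7.62-fold lower by the floor and 6.10-fold by the exact interval, and 63 of the 122 lay in 1 cell. Its log-fold of -0.74 (-0.96 to 0.13) had an interval that includes 0. *Birc6*, a large inhibitor of apoptosis, had 534 (490 to 581) in 55 cells and 118 (97.7 to 141) in 21 cells, with a log-fold of -0.62 (-0.85 to -0.33). Of the 24 genes that passed, 6 had no treated count, in a treated library of 208578 counts against 1113424 uninjected. The share of all genes with no treated count was not computed, so this number has no background beside it.

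Of the higher genes, *Casp6*, an effector caspase, had 364 (328 to 403) counts in 43 uninjected cells and 224 (196 to 255) in 43 treated cells, of which 153 lay in 1 cell, with a log-fold of 0.66 (0.45 to 0.87). *Vdac1* had 136 (114 to 161) in 32 cells and 61 (46.7 to 78.4) in 23 cells, 35 of them in 1 cell, with a log-fold of 0.53 (0.19 to 0.91). The other genes named per list stayed within the limit or under the filter. In the BCL-2 family these were *Bak1* (80 and 11 counts) and *Bcl2l10* (36 and 0), among inhibitors of apoptosis *Birc2* (21 and 0), in death receptor signalling *Traf2* (47 and 5) and *Fadd* (19 and 8), in poly(ADP-ribose) turnover *Parg* (48 and 15), and in ubiquitin editing *Nfkbia* (53 and 9) and *Tnfaip3* (47 and 5). The kinases related to *Dapk2* were scarce, with 6 and 3 counts of *Dapk1* and 0 and 6 of *Stk17b*. The necroptosis list had 1 gene with a row, *Ripk3*, which the filter on genes removed.

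Between the sides of the uninjected plate, 27 of the 51 passed, and *Diablo*, *Vdac2*, *Casp6*, *Traf2* and *Tnfaip3* (5) were higher and 6 lower on columns 1 to 6, among them *Bak1*, *Bad*, *Vdac3*, *Birc2* and *Birc5*, beside 15.9% and 14.6% of all genes, with a median of -0.01 beside 0.02. The shares of the 27 genes were 18.5% and 22.2%. *Tnfaip3*, another editor of ubiquitin chains, and *Traf2*, an adaptor of the tumour necrosis factor receptors, each had 43 counts on columns 1 to 6 and 4 on columns 7 to 12, though 31 of the 47 *Traf2* counts and 22 of the 47 *Tnfaip3* counts lay in 1 cell each. *Bad* lay the other way with 11 and 111, and *Birc2* with 0 and 21.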

How the data were processed

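Single GFP-positive cells, sorted as cones, were sequenced from uninjected and GSK-J4-injected *Pde6c*.GFP retinae, 1 library each. The authors deposited 1 table of whole-number counts per gene and cell. Per the study's methods, reads were aligned with CLC Genomics Workbench to a mouse genome named GRCh38 (a human build number), PCR duplicates were removed by an 8-nt UMI, and featureCounts sums of 3′ and 5′ reads were added. Whether the counting used strand is not given. The methods also name a Combat batch correction. It was not applied here, and whether the deposited counts carry it is not given in the sources used here.

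The filter of the methods (genes detected in 3 or more cells, and cells that had 200 or more genes and no more than 5% of counts from mitochondrial genes) kept 15947 of 17774 genes and 146 of 151 cells. The 5 cells left out held 104 counts of the 9 genes. The deposited table held 85 uninjected and 66 GSK-J4-treated cells, fewer treated cells than the study reports after its own quality control. The cells used here are thus not the exact set that the study analysed. Each cell was scaled to 10000 counts, and log-folds are differences of ln(mean over cells + 1), as in Seurat v.2. Intervals of means are gamma intervals for weighted sums, combined for log-folds, at 95%. A fold against 0 uses a floor of 3 counts per library. Genes counted as beyond 0.3 were detected in 10% or more of the cells of either group. For equal depth, cells were thinned to 867 counts (the percentile 10 of cell totals), in 1 random draw without replacement. The log-fold and its interval were tested on simulated Poisson counts drawn at uninjected rates with set fold changes. The simulation was not given lone high cells or skipped values, so it cannot check the intervals on counts that have these. Python 3.11.15, pandas 2.3.3, numpy 2.4.6, scipy 1.17.1 and matplotlib 3.10.9 were used. Gene positions were read from GENCODE vM21 (GRCm38).

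The genes, the lists and the split by well column were chosen with earlier results of these data known. Named in the text were all 9 genes, the 2 genes of each list with the most uninjected counts, the 3 genes most like each member found in 25% or more of uninjected cells, and cone markers. Other genes of a list beyond 0.3 are named beside their count and were picked after their values were seen. One listed gene counted among those lower is not reported here.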

Additional observations from a re-analysis of the deposited data

Results flagged for a closer look

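The GSK-J4 log-fold of *Parp1* had opposite signs on the sides of the plates, -0.55 over wells of columns 1 to 6 and 1.15 over wells of columns 7 to 12, both beyond 0.3. The difference between the sides was not tested, since each side is part of 1 library per condition. Without the cell of highest scaled value in each group the values were 0.32 and 0.27. Without the highest uninjected cell alone the first was 0.45, and without the highest treated cell alone the second was -0.18.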

How the results depend on the processing

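The limits are those of 1 library per condition, a shallow treated library that lacks cone markers, sums led by lone cells and deposited counts that skip 2. No paired analysis was possible because the result comes from no test and each condition has 1 library. Leaving out a replicate was not possible for the same reason.

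Between the libraries, the number of the 9 genes higher beyond 0.3 was 2 to 4 under all alternatives, and *Cyld* and *Dapk2* were among them under each one. The number lower was 2 in place of 1 with at least 500 genes per cell, summed counts, median-ratio size factors and thinned cells, which added *Bcl2l1*, and on columns 1 to 6 and with only the treated cells that had a cone marker count (an alternative chosen after seeing the data), which added *Parp1*. *Cflar* was lower under each alternative. The log-fold of *Parp1* was reversed on columns 1 to 6 (-0.55), under median-ratio size factors (-0.13), and at -0.46 with only the treated cells that had a cone marker count, where *Cyld* was at 0.59 and *Dapk2* at 0.82. Median-ratio scaling moved the ratio of summed rates of each gene by -0.83 on the log2 scale between the libraries and by -0.05 between the sides, and log-folds by less, since 1 is added before the log.

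Between the sides of the uninjected plate, the number higher on columns 1 to 6 was 1 in place of 2 with summed counts, with median-ratio size factors and without the highest cells, and the number lower was 1 in place of 2 with no filter and without the highest cells. *Parp1* was reversed under summed counts (-0.14), under median-ratio size factors (-0.17) and without the highest cells (-0.12), and *Cyld* reversed to 0.46 with no filter, which brings back 3 uninjected cells. The causes were not tested. Of 90 log-folds recomputed between the libraries 66 stayed within their counting interval, 21 moved beyond it and 3 reversed, and of 63 between the sides 52, 7 and 4 did.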
